A study of Homo sapiens with 4 samples.

Results

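The snaR family consists of short noncoding RNAs that RNA polymerase III transcribes from many near-identical gene copies. In cells they are held by proteins that bind double-stranded RNA. Most copies lie in clusters on chromosome 19, some of them among the genes of the chorionic gonadotropin beta subunit, and the RNAs are known from testis and from immortalized and tumour cell lines. Every probe whose transcript accession belongs to a RefSeq gene with a symbol starting SNAR was taken. The RefSeq table held 28 such genes, 26 of them on chromosome 19, and 8 of the 28 had a spot on the array: SNAR-A3, SNAR-B2, SNAR-D, SNAR-F, SNAR-G1, SNAR-G2, SNAR-H and SNAR-I. Each had 1 probe and 1 spot, among 20501 genes in all that could be named. The RNAs of these 8 genes are 119 to 128 bases long. The family was chosen for its difference between the peptides at 48 h, so that difference is given as a description: the family was selected on the log2 differences of some of its probes between the peptides at 48 h, and its members by their symbols.

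The samples were labelled MCF-10A, a non-tumorigenic human mammary epithelial cell line, grown in a mammary epithelial medium with growth supplements and cholera toxin. Cells received either a stapled-peptide or a non-specific stapled-peptide at 10 µM for 24 h or 48 h. A stapled peptide is one whose helix is held by a chemical bridge between side chains, and the study developed such peptides against the binding of the protein BIG3 to PHB2. The labels mark the non-specific arrays as the control and name neither peptide by the study's codes, so which of the study's peptides each array held is not settled. There was 1 culture and 1 single-colour array per peptide and time, all 4 arrays lay on 1 slide, and no value has a replicate, an SD or a test. Differences between the peptides are non-specific minus stapled-peptide. The only error available is the scanner software's estimate for a single spot, which covers the spot and not the culture.

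The array labelled non-specific, 48 h stood apart from the other 3 over all probes. Its Pearson correlation with each of them was 0.799 to 0.807, and that among the 3 was 0.976 to 0.978. At 48 h 3629 of 17150 measured genes (21.2%) were at least 2-fold higher and 3391 (19.8%) at least 2-fold lower on it. The markers of basal mammary epithelium by which MCF-10A is known were at least 2-fold lower for 11 of 12 genes, with a median log2 difference of -7.39. The log2 summed signal of these 12 genes was 17.28 to 17.33 on the other 3 arrays and 9.39 on this one. KRT5, a keratin of basal cells, had log2 signals of 14.65, 14.54 and 14.59 on those arrays and 5.02 here. CDH1, the epithelial cadherin, differed by -0.31 on the log2 scale, from signals of 4.92, 5.25 and 5.44 on those arrays and 5.13 here. Its probe was low on all 4 arrays, so whether this marker was kept cannot be read. Among 7 measured luminal mammary markers the median was -0.31, with FOXA1 higher and KRT8 and KRT18 lower by at least 2-fold. Of 10 genes of embryonic kidney lines and neurons, 8 were at least 2-fold higher, with a median of 7.52. The log2 summed signal of the 10 was 7.86 to 8.10 on the other arrays and 16.20 here. PAX2 and L1CAM were not higher, at bounds of -0.59 and -0.58, while their other probes gave 3.89 and 0.11. The marker lists were chosen with earlier results of these data known, so their values only describe the array. The marker values go against the label of the non-specific 48 h sample, on whose array the snaR genes were bright. Whether its cells were MCF-10A was not tested, nor was the part of this in the snaR values, and every snaR value from that array stands under this doubt. Fewer cells of a type and less RNA per cell cannot be told apart in such samples.

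The snaR probes shared 1 pattern, with a low signal on 3 arrays and a very bright one on the array labelled non-specific, 48 h. All signals were background-subtracted, put on the log2 scale and quantile-normalized over the 4 arrays, and they are given for stapled-peptide at 24 h, non-specific at 24 h, stapled-peptide at 48 h and non-specific at 48 h, in that order. SNAR-A3, a member of the largest snaR subgroup, had log2 signals of 9.79, 10.53, 9.90 and 18.17. Before normalization its signal on the last array was 332406, the highest of any spot that was not a control, beside 914, 1523 and 856 on the others. SNAR-B2 had log2 signals of 9.01, 9.92, 9.05 and 17.88. For each of these genes the stapled-peptide values at both times were within 0.2 of each other on the log2 scale, the non-specific value at 24 h was higher than both, and that at 48 h stood far above all.

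SNAR-D had log2 signals of 8.12, 9.13, 7.91 and 17.70, from signals of 285, 570, 214 and 218297 before normalization. The values of SNAR-F were 7.46, 7.80, 7.35 and 16.93, with smaller steps between the first 3 arrays. SNAR-G2, which lies among the chorionic gonadotropin beta genes, gave 7.59, 8.50, 7.48 and 17.10. Its near neighbour SNAR-G1 was at 6.29, 6.35, 5.79 and 15.02, and here the 24 h arrays were level. SNAR-H, the copy on chromosome 2, gave 8.25, 8.96, 8.18 and 17.47. It lies apart from the chromosome 19 clusters and showed the same arrangement of arrays. These 7 genes were well above background on every array. In all 7 the non-specific 24 h array was the highest of the 3 arrays with a low signal, for SNAR-G1 by only 0.06 on the log2 scale. With normexp background correction the 24 h difference of SNAR-G1 was -0.03, so its place in this order depends on the processing. The share of all probes with this order was not computed, so the count is not read as a trait of the family.

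SNAR-I, the copy on chromosome 3, stayed too dim to be well above background on all 4 arrays, where its background-subtracted signals were 4.32, 12.6, 5.45 and 4.34 before normalization. No order among these 4 values can be read, and no fold was computed for it. It had no bright value on the array where the other 7 were bright. The remaining 20 snaR genes had no spot and were not analysed here.

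**Figure D1:**
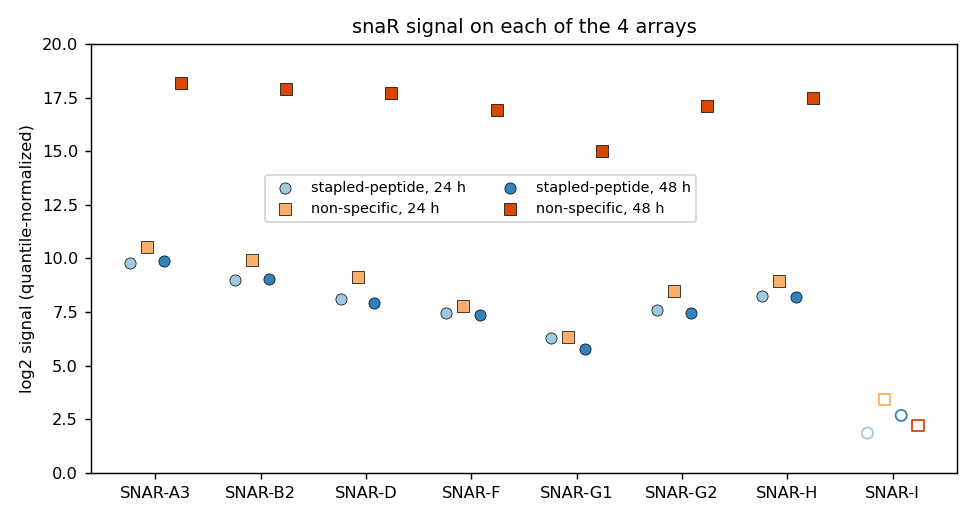
log2 quantile-normalized signal (vertical axis) of the 8 snaR genes with a spot (horizontal axis) on the 4 arrays, 1 point per array, circles for stapled-peptide and squares for non-specific stapled-peptide, with open symbols for spots not well above background. The non-specific 48 h squares sit between 15.02 and 18.17 for 7 genes, and the other arrays between 5.79 and 10.53, while SNAR-I is dim on all 4.

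The spots themselves were unremarkable in the software's record. None of the 32 snaR spots was marked as an outlier and none was saturated. The 8 spots were scattered between grid rows 1 and 370 of 384 and columns 4 and 156 of 164. Of the 52 spots next to a bright snaR spot, 39 were well above background on an array of 48 h, with a median unnormalized log2 difference of 0.48 between the peptides and 0 over 100-fold. The highest of these 39 differences was 5.88. Over all probes with a value the median without normalization was 0.19. After normalization 0.0969% of all probes were over 100-fold higher, so a count of 0 among 39 spots says little. The snaR copies are alike in sequence, so a probe may bind several of them, and the 7 probes are not 7 independent measurements of the family.

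At 48 h all 7 measured snaR genes were more than 100-fold higher with the non-specific stapled-peptide, the comparison by which the family was selected, and 49 of 50590 probes (0.0969%) were. Of the 50590 probes 35697 had a value, and the 49 include the 7 snaR probes. SNAR-D differed most among the snaR genes, by 9.79 on the log2 scale or 885-fold. SNAR-G2 followed with a log2 difference of 9.62 (788-fold) and SNAR-F with 9.59 (769-fold). For SNAR-H it was 9.29 (626-fold) and for SNAR-G1 9.24 (604-fold). The smallest were those of SNAR-B2, 8.83 (456-fold), and SNAR-A3, 8.28 (310-fold). The family's median log2 difference was 9.29, and the software's error of a difference was 0.19 to 0.21. In this order the steps from SNAR-D to SNAR-G2, from SNAR-G2 to SNAR-F and from SNAR-H to SNAR-G1 were smaller than the combined error of the pair. The steps from SNAR-F to SNAR-H (0.30), from SNAR-G1 to SNAR-B2 (0.40) and from SNAR-B2 to SNAR-A3 (0.56) were larger than that error, which leaves out the spread between cultures. Over all probes, the smallest difference inside the 100-fold limit was 6.65 on the log2 scale and the largest outside it 6.62.

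At 24 h, on arrays that had no part in choosing the family, all 7 differences were in the same direction and far smaller. Of all 33047 probes with a value, 50.8% were higher with the non-specific stapled-peptide. SNAR-D was higher with the non-specific stapled-peptide by 1.01 on the log2 scale, or 2.01-fold. For SNAR-B2 the log2 difference was 0.92 (1.89-fold), for SNAR-G2 0.91 (1.88-fold), for SNAR-A3 0.74 (1.67-fold) and for SNAR-H 0.71 (1.63-fold). These 5 of 7 genes were over 1.5-fold higher, beside 736 of 28931 probes (2.54%) that were well above background on both arrays. SNAR-F, at 0.34 (1.27-fold), and SNAR-G1, at 0.06 (1.04-fold), were not. Against a software error of 0.19 to 0.21, the value of SNAR-G1 was indistinguishable from 0. The family's median log2 difference at 24 h was 0.74, beside a median of 0.0043 over all probes with a value and an SD of 0.32 over those well above background on both arrays. The steps between neighbours in the 24 h order were within the combined error of the pair, except that from SNAR-H to SNAR-F. With 1 culture each, none of these differences can be set against the spread between cultures.

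**Figure D2:**
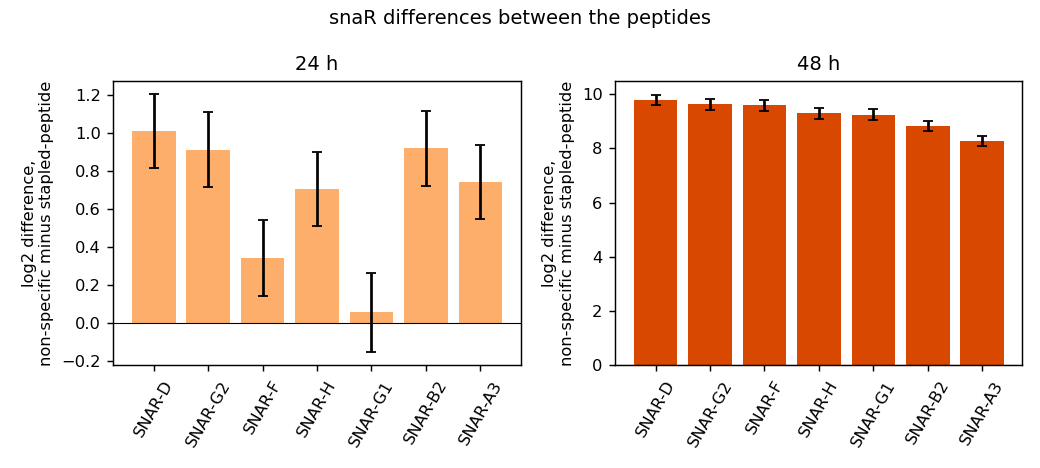
log2 differences between the peptides (vertical axes, non-specific minus stapled-peptide, on different scales) for the 7 measured snaR genes at 24 h (left) and 48 h (right), 1 array per peptide and time, with bars for the software's error of the difference. The 48 h values lie between 8.28 and 9.79 and the 24 h values between 0.06 and 1.01, with SNAR-G1 and SNAR-F lowest at 24 h.

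**Figure D3:**
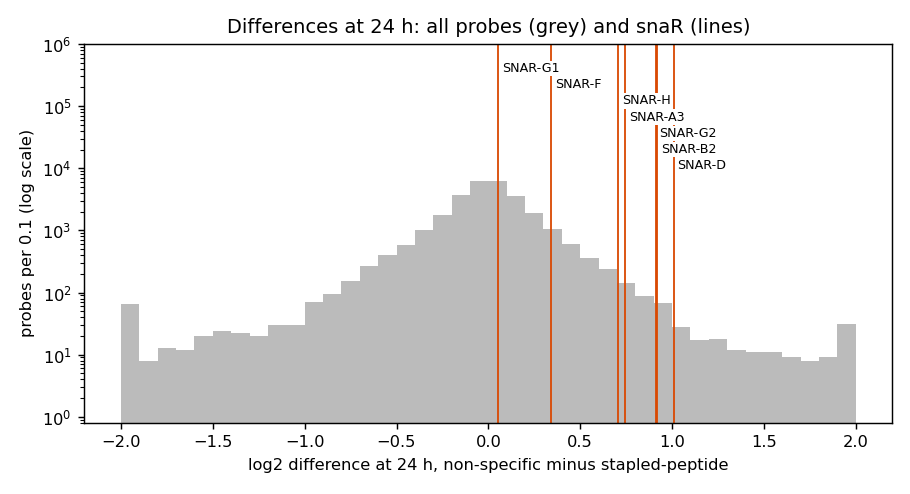
Number of probes (vertical axis, log scale) by log2 difference at 24 h (horizontal axis, non-specific minus stapled-peptide) over 28931 probes that both arrays measured well above background, where those beyond 2 in either direction are in the end bars and each snaR gene has a line. SNAR-H, SNAR-A3, SNAR-G2, SNAR-B2 and SNAR-D lie between 0.71 and 1.01, on the right flank of the probes, and SNAR-G1 lies near their centre.

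The 24 h difference can also be stated as a share of the 48 h difference on the linear signal scale. The excess of the non-specific over the stapled-peptide signal at 24 h was 0.203% of the excess at 48 h for SNAR-A3, 0.190% for SNAR-B2 and 0.132% for SNAR-D, and for SNAR-G2 and SNAR-H it was 0.121% and 0.106%. For SNAR-F it was 0.0377%. For SNAR-G1 it was 0.00916%, or 0.00280% without normalization, and rested on a 24 h difference within the software's error. Of the 42 other probes over 100-fold higher at 48 h, 7 were well above background on both 24 h arrays. The same share ran from -0.135% to 0.558% for these 7, with a median of 0.131%. Of the 7, 6 were higher with the non-specific stapled-peptide at 24 h, with a median log2 difference of 0.24, and SMO, named after its value was seen, was at -0.18. The snaR shares lay within the range of these other probes.

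Between 24 h and 48 h the snaR signals moved past 2-fold with the non-specific stapled-peptide and not with the other. The pairing of the non-specific arrays shares the 48 h array with the comparison of peptides at 48 h, so it adds only the non-specific 24 h array. SNAR-F was higher at 48 h than at 24 h by 9.13 on the log2 scale with the non-specific stapled-peptide and SNAR-G1 by 8.68. For SNAR-G2, SNAR-D and SNAR-H these log2 differences were 8.60, 8.57 and 8.52, and for SNAR-B2 and SNAR-A3 7.96 and 7.64. All 7 exceeded 100-fold, beside 49 of 50590 probes (0.0969%). Of the 50590 probes 36193 had a value, and the 49 include the 7 snaR probes.

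With the stapled-peptide the snaR signals at 24 h and 48 h lay close together. The log2 difference, 48 h minus 24 h, was 0.11 for SNAR-A3, 0.04 for SNAR-B2, -0.07 for SNAR-H, -0.11 for both SNAR-F and SNAR-G2, and -0.21 for SNAR-D. SNAR-G1 showed the largest, -0.51. The median was -0.11, with 2 genes higher and 5 lower. Without normalization between arrays all 7 were lower at 48 h, with log2 differences of -0.80 to -0.10, so the signs of SNAR-A3 and SNAR-B2 depend on the scaling. The 7 snaR probes thus gave signals well above background in the stapled-peptide cultures at both times, each within 2-fold between the times. Which RNAs the probes bound was not tested.

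Genes of proteins that bind double-stranded RNA, or partner with those that do, were compared next. At 48 h ILF2, which encodes a subunit of a double-stranded RNA-binding complex, was 1.31 higher on the log2 scale with the non-specific stapled-peptide. STRBP, a double-stranded RNA-binding protein of sperm cells, was higher by 2.99. XPO5, the exporter of small structured RNAs, was higher by 1.47, with 1.29 and 0.65 at its other probes, and TARBP2, a partner of Dicer, was higher by 1.03. Of the 11 genes on this list 4 were at least 2-fold higher and 0 lower, with a median log2 difference of 0.56, beside 21.2% of all measured genes higher, 19.8% lower and a median of 0.03. STAU1 (-0.79), STAU2 (-0.59), ADAR (-0.17) and EIF2AK2 (-0.09, with -0.88 at its other probe) were lower at 48 h, all within 2-fold. At 24 h the 11 log2 differences lay between -0.09 and 0.12 and 0 passed 2-fold.

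RNA polymerase III and its initiation factors make snaR, transfer RNA and other short RNAs. The list of 27 genes on the array also holds MAF1, SSB and MYC, which are neither. Of the 27, 7 (25.9%) were at least 2-fold higher at 48 h and 0 lower, with a median log2 difference of 0.65. The share of higher genes was near the 21.2% of all measured genes, of which 19.8% were lower. POLR3K, a small subunit of the enzyme, was higher by 2.98 and POLR3B, its second largest subunit, by 1.84. POLR3G, the subunit typical of stem and tumour cells, was higher by 1.73, although its other probe gave 0.32. Its counterpart in differentiated cells, POLR3GL, was at -0.56, and MAF1, the repressor of polymerase III, at -0.40, both within 2-fold. At 24 h the 27 log2 differences ran from -0.23 to 0.21, with a median of 0.01. None of these genes came near the size of the snaR differences at 48 h.

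Other RNAs made by polymerase III were on the array for 9 of 16 genes, and 7 could be compared. RN7SL1, the RNA of the signal recognition particle, had log2 signals of 14.11, 13.89, 14.06 and 16.66 over the 4 arrays, a difference of 2.60 at 48 h. VTRNA1-2 and VTRNA1-3, RNAs of the vault particle, were higher by 2.03 and 1.69 on the log2 scale. RNU6ATAC, a spliceosomal RNA, was higher by 1.75 and RPPH1, the RNA of ribonuclease P, by 1.19. RN7SK, a regulator of transcript elongation, was at 0.15 and RMRP, the RNA of ribonuclease MRP, at -0.24. The median was 1.69, with 5 of 7 at least 2-fold higher and 0 lower, beside 21.2% and 19.8% of all measured genes. With normexp background correction that median was 0.99, under 2-fold. At 24 h they ran from -0.22 to 0.28. The largest of these differences, that of RN7SL1, was well below the smallest snaR difference of 8.28.

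**Figure D4:**
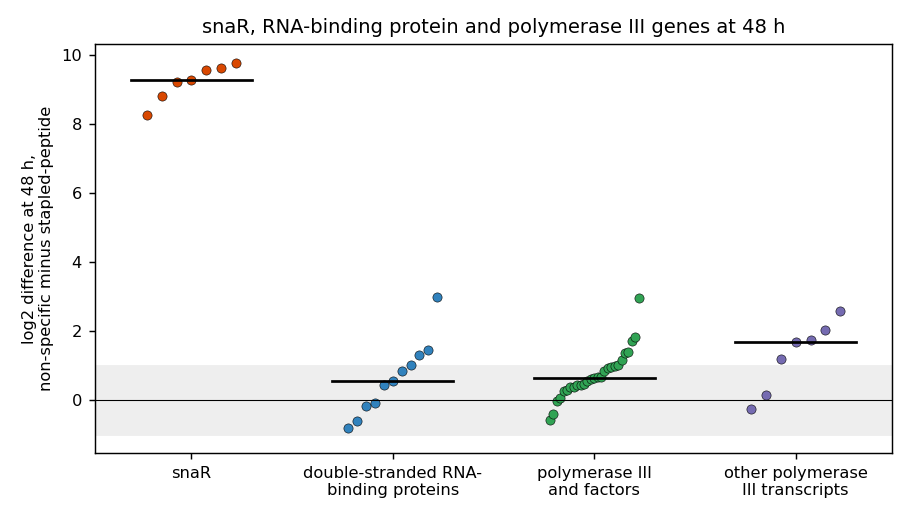
log2 difference at 48 h (vertical axis, non-specific minus stapled-peptide) for the 7 measured snaR genes and 3 gene lists, 1 point per gene in rising order within its list, with a line at the median and a grey band over differences within 2-fold. The medians are 9.29 for snaR, 0.56 for the RNA-binding proteins, 0.65 for polymerase III and its factors and 1.69 for the other polymerase III transcripts.

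The genes next to the snaR copies differed less than these did, and in both directions. Among the snaR genes and the genes with a spot, taken in RefSeq order, SNAR-G2 lies between CGB3 and CGB2, and SNAR-G1 between CGB2 and NTF4. Genes without a spot are left out of this order. CGB3 and CGB2 encode chorionic gonadotropin beta, the hormone subunit of the placenta. At 48 h the log2 difference was 0.54 for CGB3, 0.45 for LHB, the beta subunit of luteinizing hormone, and 0.40 for RUVBL2. For CGB2 it was a bound of 0.23. NTF4, a neurotrophin, was lower by a bound of -1.40, and SNRNP70, a splicing protein, by -1.93. Of 7 genes of this cluster on the array 0 were at least 2-fold higher and 3 lower, beside 21.2% and 19.8% of all measured genes, KCNA7 included with a bound of -1.09, and the median was 0.23. With each array scaled to its 75th percentile instead, that median was -0.03. The snaR pair in the midst of them differed by 9.24 and 9.62.

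Across all snaR copies, 43 other genes were among the 3 nearest with a spot on either side, and 33 of them could be compared. At 48 h 9 were at least 2-fold higher, 10 at least 2-fold lower and 14 within 2-fold, with a median log2 difference of 0.27. Over all measured genes 21.2% were higher and 19.8% lower. The lowest was SNRNP70 at -1.93. The highest was C19orf81 at 6.36, which in this order lies next but one to SNAR-F, with SYT3, a synaptotagmin, between them at 3.09. LRRC4B, the nearest gene with a spot on the other side of SNAR-F, was at a bound of -1.26. At 24 h the median of these genes was -0.08.

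**Figure D5:**
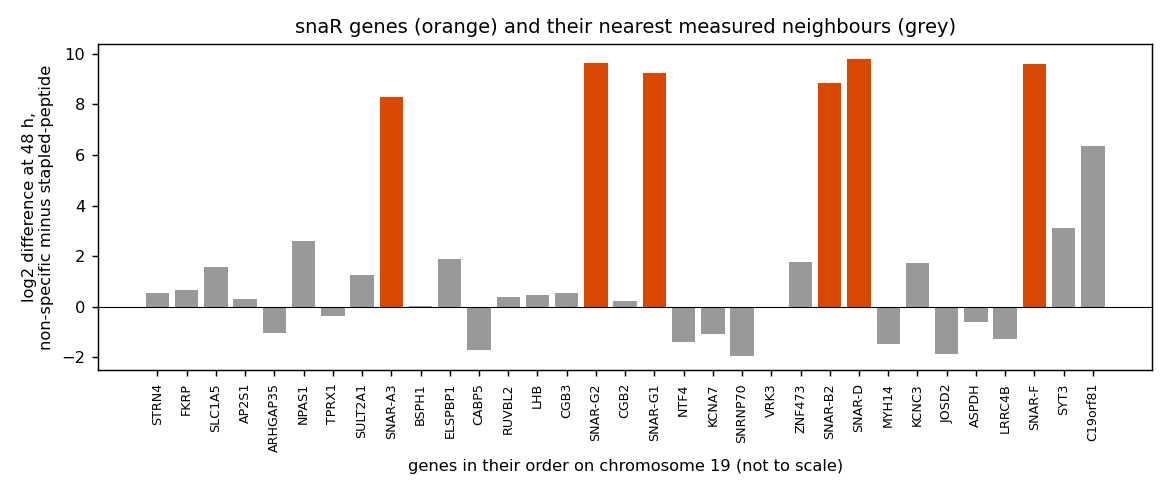
log2 difference at 48 h (vertical axis, non-specific minus stapled-peptide) for the 6 measured snaR genes of chromosome 19 (orange) and their nearest measured neighbours (grey), in gene order (horizontal axis, not to scale), with bounds for genes dim on 1 of the 2 arrays. The snaR bars reach 8.28 to 9.79, and the highest grey bar is C19orf81 at 6.36.

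Within the family the profiles over the 4 arrays were compared as Euclidean distances between log2 signals centred on each probe's mean. SNAR-H lay closest to the family's median profile (0.095), followed by SNAR-G2 (0.26), SNAR-B2 and SNAR-D (0.38 each), SNAR-F (0.51), SNAR-G1 (0.53) and SNAR-A3 (0.78). The closest pair was SNAR-D and SNAR-G2, at 0.15, and the farthest SNAR-A3 and SNAR-F, at 1.16. SNAR-I, dim throughout, lay at 8.19. The 5 genes outside the family nearest to its median profile were HEY1, a transcription factor of the Notch pathway, DPYSL5, a protein of growing axons, IGF2BP1, an oncofetal RNA-binding protein, CALCA, the calcitonin gene, and RADIL, at distances of 0.42 to 0.70. HEY1 was at least 433-fold higher at 48 h with the non-specific stapled-peptide, DPYSL5 at least 137-fold, IGF2BP1 at least 221-fold, CALCA at least 92.6-fold and RADIL at least 125-fold. All 5 were not well above background on the other 3 arrays, whereas the 7 snaR genes were, so their distances rest on dim values there and give them no order. All these distances rest on 4 arrays, and how much each array adds to them was not computed.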

How the data were processed

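RNA of each culture was labelled with Cy3 by a low-input amplification kit that primes from poly(A) stretches, so a short polymerase III transcript is measured only as far as the kit copies it, which was not tested. The authors deposited 4 scanner files per the file headers, in which the signal intensity of a spot is background-subtracted by Feature Extraction 10.7.1.1 (the submitters' processing notes name 9.5), and a combined table of the same intensities. The study's methods normalized by quantiles over all arrays. Here, control spots and spots marked as outliers were dropped, signals under 1 were set to 1, spots of a probe were averaged on the log2 scale and the 4 arrays were quantile-normalized. A probe not well above background on one array of a pair gave a bound against the lowest detected signal. Probes were named through RefSeq accessions (28168 of 50590). List genes were taken at their brightest probe, and those past 10-fold, those a result turned on or, in lists with none, those with the largest differences were named. The 5 genes nearest to the family's median profile were named as well. One gene of the RNA-binding list is not reported here. Members and lists were chosen with earlier results of these data known. Groups came from the labels. No test was possible with 1 array per group, and how many arrays there are sets the precision. The 100-fold call after quantile normalization was checked on simulated data, where few probes changed and those were well above background. The bounds, list medians, distances and neighbour counts were not checked in this way. The other settings tried were no normalization, a 75th percentile scaling, normexp background correction (limma 3.58.1, offset 50), no bound, only probes well above background, outliers kept, the combined table, and thresholds of 10-fold and 50-fold. Python 3.11.15, numpy 2.4.6, pandas 2.3.3, matplotlib 3.10.9 and R 4.3.3 were used.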

Additional observations from a re-analysis of the deposited data

Results flagged for a closer look

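For 5 snaR genes the change from 24 h to 48 h had opposite signs under the peptides. Their signals were higher at 48 h with the non-specific stapled-peptide and lower with the stapled-peptide. The count depends on the processing: with the stapled-peptide 7 were lower without normalization and 6 with normexp background correction. The share of all probes with opposite signs was not computed. The log2 change with the non-specific stapled-peptide was 8.57 for SNAR-D, 9.13 for SNAR-F, 8.68 for SNAR-G1, 8.60 for SNAR-G2 and 8.52 for SNAR-H. With the stapled-peptide it was -0.21, -0.11, -0.51, -0.11 and -0.07 in the same order. Whether these changes differ between peptides was not tested, since there was 1 array for each. The stapled-peptide changes of SNAR-F, SNAR-G2 and SNAR-H were smaller than the software's error of that difference, 0.19 to 0.22.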

How the results depend on the processing

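Alternatives were compared with the SD of the 24 h log2 differences over probes well above background, 0.32. All 7 measured snaR genes were over 100-fold higher at 48 h under every alternative run, in the comparison by which the family was selected. Lower thresholds could not reduce this count. Leaving out the bound or keeping only probes well above background could not change it, since these 7 were well above background on every array. Their median log2 difference ran from 9.0 with normexp background correction to 9.39 without normalization at 48 h and from 0.66 to 0.75 at 24 h. The median change from 24 h to 48 h ran from 8.30 to 8.59 with the non-specific stapled-peptide, and from -0.33 without normalization to -0.09 with the stapled-peptide. With normexp the median of the other polymerase III transcripts at 48 h was 0.99 in place of 1.69, that of the basal markers -6.04 in place of -7.39, and that of the embryonic kidney and neuronal genes 5.53 in place of 7.52. Without the bound for dim probes the last was 9.21. No other list median moved by more than that SD. Single snaR genes did so at 48 h: SNAR-F, SNAR-G1 and SNAR-G2 with normexp, at 9.10, 8.17 and 9.12, and SNAR-A3 without normalization, at 8.60. With normexp the changes from 24 h to 48 h with the non-specific stapled-peptide also moved for SNAR-F, to 8.72, and SNAR-G1, to 7.92. With normexp SNAR-G1 at 24 h was at -0.03, so that 6 of 7 snaR genes were higher. Scaling to the 75th percentile moved the median of all probes at 48 h to -0.14, and no normalization to 0.19. No paired analysis was possible because each peptide and time had 1 array. Signal over background limits SNAR-I, and the lack of replicates limits every value.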
